A study of Mus musculus with 6 samples.

Results

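The genes described are the subunits of the transcription factor NF-kB (Nfkb1, Nfkb2, Rela, Relb and Rel) and 5 genes that restrain or modify it (Nfkbia, Nfkbib, Nfkbie, Nfkbiz and Tnfaip3). They were taken by name from the probe annotation of the arrays, which gave 20 of 56598 probes. All 10 genes lay well above background on all 6 arrays, and are 10 of 19500 genes tested. Transcripts were measured on 1-colour (Cy3) Agilent arrays in monocytes that had been sorted with magnetic beads out of bone marrow (C57BL/6J mice aged 6 to 8 weeks) and then cultured for 60 h. The cultures labelled IFN-beta received 100 U of mouse IFN-beta, a type I interferon, beside 20 ng/mL M-CSF, under which monocytes mature towards macrophages. The control cultures received 20 ng/mL M-CSF alone. Each group had 3 arrays. The labels do not tell whether replicates are separate mice or separate cultures, and p-values then measure only the spread between these samples, which may be technical. The comparison addresses how IFN-beta alters transcripts while monocytes mature.

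NF-kB is a family of dimeric transcription factors. In resting cells inhibitor proteins of the IkB family, encoded by Nfkbia, Nfkbib and Nfkbie, hold the dimers in the cytoplasm, and in the canonical pathway the IkB kinase marks these inhibitors for destruction, which frees dimers of RelA, c-Rel and p50. In the non-canonical pathway the precursor made from Nfkb2 is cut to p52, which acts with RelB. In macrophages the family is known for driving the genes of cytokines, chemokines and survival factors, and several of its own members are among its targets.

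The arrays were not equally alike. Processed signals had their 75th percentile at 244, 236 and 242 for IFN-beta 1, 2 and 3, against 549, 528 and 305 for controls 1, 2 and 3. Over 17522 genes well above background on every array, the spread of the log2 difference (scaled median absolute deviation) was 0.110 between controls 1 and 2, 0.332 and 0.351 between control 3 and these, and 0.241 to 0.308 among the IFN-beta arrays. Monocyte and macrophage markers were present throughout, with all 12 well above background on every array and Csf1r, the M-CSF receptor, between 7.15 and 7.66, although 6 of the 12 changed (given below with the other markers; log2 of the signal relative to the 75th percentile of its array, the scale of all levels below). Fibroblast markers, by contrast, were all above background on controls 1 and 2 (17 of 17), but 9 of 17 were on each IFN-beta array and 8 of 17 on control 3. Their summed level was 1.46 to 1.71 on the IFN-beta arrays, against 9.12 and 9.34 on controls 1 and 2 and 0.41 on control 3. Control 3 is therefore also compared on its own with the IFN-beta arrays. That comparison takes the spread from the IFN-beta arrays and assumes that the lone control varies like them. All 5 interferon-induced genes taken as a check rose, among them Irf7 by 4.32 ± 0.30 and Isg15 by 3.79 ± 0.25 (log2 fold changes with their SE, n = 3 each, limma adjusted p = 1.44e-04 and 1.23e-04), and control 3 lay below every IFN-beta array for each of the 5.

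With IFN-beta, 2 members fell, 1 rose and 7 did not pass the test. Nfkbie, an inhibitor gene, fell by 0.93 ± 0.21 on the log2 scale, a 1.90-fold change, and Nfkb2 fell by 0.75 ± 0.15, a 1.69-fold change. Nfkbib, another inhibitor gene, rose by 0.71 ± 0.18, or 1.64-fold. The 3 calls make up 30.0% of the members, against 19.8% of all genes tested (11.8% higher and 8.03% lower, limma with Benjamini-Hochberg adjustment over all 19500 genes at an adjusted p under 0.05). Of all calls 59.5% were higher. That share was 69.9% with normexp background correction and 75th percentile scaling and 30.1% with scaling on spike-in controls, where the median of all genes was 0.18 and -0.15. With normexp and quantile normalization the share was 59.3% and the median of all genes 0.06. The median log2 fold change of the members was -0.17, beside 0.10 for all genes. It was -0.28 against control 3 (all genes -0.10) and -0.06 against controls 1 and 2 (all genes 0.22), -0.32 with quantile normalization and -0.42 with spike-in scaling. All the differences were small beside those of the interferon-induced genes. In bulk samples, fewer cells of a type and less RNA per cell cannot be told apart.

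**Figure D1:**
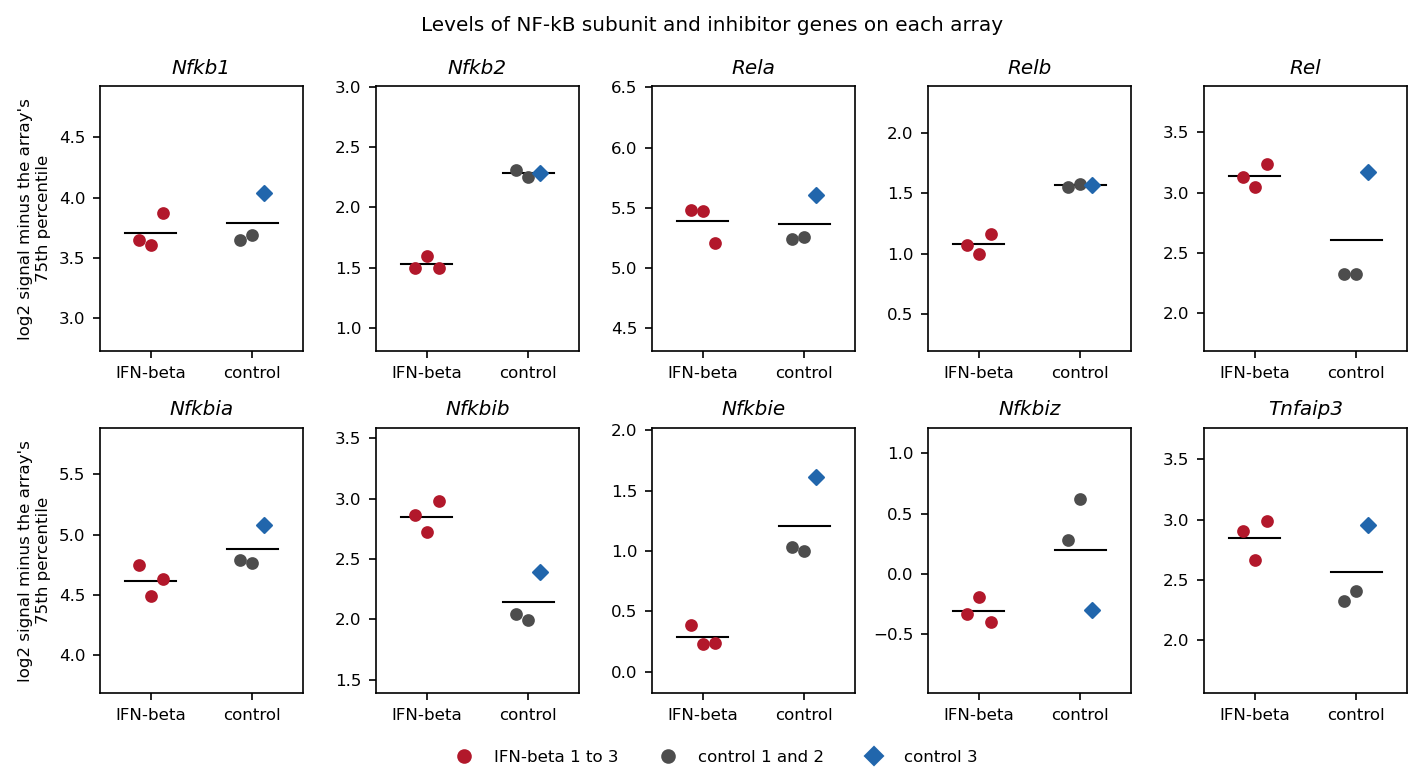
Level of each gene on each array (y axis, log2 of the signal relative to the 75th percentile of its array, each panel spanning the same range), with IFN-beta arrays on the left, controls on the right and horizontal lines at group means. Nfkb2 and Relb are level across the 3 controls and lie lower on all IFN-beta arrays, while Rel, Tnfaip3 and Nfkbiz on control 3 (diamonds) lie within the IFN-beta range.

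The promoters of the genes that were called are shown because some members of the family are known targets of NF-kB, and because interferon acts through factors that bind the interferon-stimulated response element and the interferon-gamma-activated site. RefSeq (GRCm38.p6) windows from 250 bases before to 50 bases after a transcription start were at hand for 7 of the 10 members, 10 windows in all, and not for Nfkb1, Relb and Nfkbiz. Capitals mark matches on either strand to the kB decamer consensus (named only), to the core of the response element, which is a repeat of GAAA with a gap of 2 bases, or to TTCNNNGAA for the activated site. The windows of the 3 called genes and of Nfkbia read as follows, 5′ to 3′ along the gene.
Nfkb2 (chr19:46304487-46304786, plus strand): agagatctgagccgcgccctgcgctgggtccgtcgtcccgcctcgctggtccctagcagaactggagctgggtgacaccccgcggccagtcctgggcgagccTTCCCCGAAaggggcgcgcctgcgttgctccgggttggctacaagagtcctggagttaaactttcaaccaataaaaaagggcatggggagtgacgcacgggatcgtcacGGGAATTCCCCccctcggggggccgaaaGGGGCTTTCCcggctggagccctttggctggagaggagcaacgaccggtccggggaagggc
Nfkbie (chr17:45555450-45555749, plus strand): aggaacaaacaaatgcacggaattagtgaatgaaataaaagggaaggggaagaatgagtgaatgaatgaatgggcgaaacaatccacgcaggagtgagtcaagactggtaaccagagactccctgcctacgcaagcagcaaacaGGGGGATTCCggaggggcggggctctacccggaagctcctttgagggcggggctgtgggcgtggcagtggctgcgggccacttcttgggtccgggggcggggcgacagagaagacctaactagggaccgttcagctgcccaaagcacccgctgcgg
Nfkbia (chr12:55492598-55492897, minus strand): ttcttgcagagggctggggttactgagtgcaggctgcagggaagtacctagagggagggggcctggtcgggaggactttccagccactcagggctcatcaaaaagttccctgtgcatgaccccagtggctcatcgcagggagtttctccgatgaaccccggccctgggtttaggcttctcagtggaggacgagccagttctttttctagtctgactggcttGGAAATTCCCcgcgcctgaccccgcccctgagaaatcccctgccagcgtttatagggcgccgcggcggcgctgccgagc
Nfkbib (chr7:28766595-28766894, minus strand): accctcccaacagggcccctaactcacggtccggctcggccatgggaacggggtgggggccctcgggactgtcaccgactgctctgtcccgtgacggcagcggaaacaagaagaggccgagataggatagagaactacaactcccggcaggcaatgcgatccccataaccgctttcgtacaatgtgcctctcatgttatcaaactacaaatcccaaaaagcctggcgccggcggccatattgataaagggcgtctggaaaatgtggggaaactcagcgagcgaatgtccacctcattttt
In the Nfkb2 window, the first of 3 for that gene, the kB consensus matched at -39 to -30 and, overlapping it, at -38 to -29, and again at -11 to -2, counted from the start. The capitals further upstream, at -148 to -140, are a match to TTCNNNGAA. Nfkbie had 1 kB match, at -106 to -97, and Nfkbia 1, at -29 to -20, while no motif searched matched in the Nfkbib window. Of the 7 members with a window, 5 (Nfkb2, Rel, Nfkbia, Nfkbie and Tnfaip3) held a kB match in at least 1 window, 1 held TTCNNNGAA and none held the response element core. Of all 32851 windows, taken singly, 8.46% held a kB match, 8.30% TTCNNNGAA and 3.44% the response element core. The counts for members are per gene, and a gene can have several windows, so they do not compare directly with these shares. A match is a sequence of letters and not evidence of binding.

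Nfkb2 was the subunit gene that changed, and Relb, which acts with its product, missed the threshold in the same direction. Nfkb2, which encodes the precursor of p52 (probe at chromosome 19, 46386440 to 46386499, plus strand, mm9), stood at 1.50, 1.60 and 1.50 on IFN-beta 1, 2 and 3, against 2.31, 2.25 and 2.28 on controls 1, 2 and 3. The groups were well apart and the controls nearly equal, control 3 included (limma adjusted p = 0.0123). The fall was -0.75 against controls 1 and 2 (adjusted p = 0.00315) and -0.75 ± 0.20 against control 3 (adjusted p = 0.0726). Relb, the partner of p52 (chromosome 7, 20191722 to 20191781, minus strand), was at 1.07, 1.0 and 1.16 on the IFN-beta arrays, against 1.55, 1.58 and 1.57 on the controls. Its groups did not overlap either, and its log2 fold change of -0.49 ± 0.15 missed the threshold over all genes (adjusted p = 0.0565, unadjusted p = 0.0120). It was -0.49 both against controls 1 and 2 (adjusted p = 0.0151) and against control 3 (adjusted p = 0.202). Nfkb2 and Relb were the members for which control 3 lay within 0.1 of the mean of controls 1 and 2, as did 9.32% of all genes.

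The canonical subunits showed no call. Rela, which encodes p65 (chromosome 19, 5648070 to 5648129, plus strand), was at 5.48, 5.47 and 5.21 on the IFN-beta arrays, against 5.24, 5.26 and 5.61 on the controls. The groups overlapped, and the difference of 0.01 ± 0.18 had a 95% interval from -0.40 to 0.43 (limma adjusted p = 0.963). Nfkb1, which encodes the precursor of p50 (chromosome 3, 135247898 to 135247958, minus strand), was at 3.65, 3.61 and 3.87, against 3.65, 3.69 and 4.04 on the controls. These groups overlapped too, with a difference of -0.08 ± 0.18 and a 95% interval from -0.50 to 0.33 (adjusted p = 0.769). The sign of Rela turned under other scalings, and that of Nfkb1 without control 3 and with all probes averaged.

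Rel gave different answers against different controls. Rel, which encodes c-Rel, the subunit known for its role in lymphocytes and in the transcription of Il12b in macrophages (chromosome 11, 23637051 to 23637110, minus strand), was at 3.13, 3.05 and 3.24 on the IFN-beta arrays, against 2.33, 2.33 and 3.17 on the controls. Control 3 lay among the IFN-beta arrays and the other controls well below them. The log2 fold change was 0.53 ± 0.25 over all controls (limma adjusted p = 0.170), 0.81 ± 0.11 against controls 1 and 2 (adjusted p = 0.00306) and -0.02 ± 0.20 against control 3 (adjusted p = 0.956). Controls 1 and 2 were the arrays with high fibroblast transcripts, whose part in the difference was not tested.

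The inhibitors that hold NF-kB in the cytoplasm did not move together. Nfkbie, which encodes IkB epsilon (chromosome 17, 45700000 to 45700059, plus strand), was at 0.39, 0.23 and 0.24 on IFN-beta 1, 2 and 3, against 1.03, 1.0 and 1.61 on controls 1, 2 and 3. The groups did not overlap, and control 3 lay farthest from the IFN-beta arrays. The change was -0.93 ± 0.21 over all controls (limma adjusted p = 0.0200), -0.73 against controls 1 and 2 (adjusted p = 0.00415) and -1.32 ± 0.20 against control 3 (adjusted p = 0.0146), and Nfkbie was the member called in each of these 3 comparisons. Nfkbib, which encodes IkB beta (chromosome 7, 29544167 to 29544848, minus strand), was at 2.86, 2.72 and 2.98 on the IFN-beta arrays, against 2.04, 1.99 and 2.39 on the controls. Every IFN-beta array was above every control, with control 3 the nearest. The change was 0.71 ± 0.18 (adjusted p = 0.0303), 0.84 against controls 1 and 2 (adjusted p = 0.00355) and 0.46 ± 0.21 against control 3 (adjusted p = 0.241). With scaling on spike-in controls it was 0.46 over all controls and not called (adjusted p = 0.355). Nfkbia, which encodes IkB alpha, the inhibitor that NF-kB is known to induce in a fast feedback loop (chromosome 12, 56590945 to 56591440, minus strand), was at 4.75, 4.49 and 4.63 on the IFN-beta arrays, against 4.79, 4.77 and 5.08 on the controls. Its groups did not overlap, but by a margin smaller than the spread within them, and the difference of -0.26 ± 0.17 was not called (95% interval -0.65 to 0.14, adjusted p = 0.316). Nfkbia was at -0.45 against control 3 and -0.16 against controls 1 and 2 (adjusted p = 0.253 and 0.331). It was -0.51 with spike-in scaling, -0.13 with slide as a block, and -0.43 and called with normexp and quantile normalization (adjusted p = 0.0250).

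The nuclear modifier and the ubiquitin editor both had controls that differed among themselves. Nfkbiz, which encodes IkB zeta, a nuclear protein needed for part of the secondary response genes of macrophages (chromosome 16, 55812091 to 55812150, minus strand), was at -0.33, -0.19 and -0.40 on the IFN-beta arrays, against 0.28, 0.62 and -0.30 on the controls. Control 3 lay among the IFN-beta arrays, and controls 1 and 2 above them. The change of -0.51 ± 0.25 was not called (limma adjusted p = 0.179), while it was -0.76 against controls 1 and 2 (adjusted p = 0.00883) and -0.01 against control 3 (adjusted p = 0.985). Tnfaip3, which encodes an enzyme that edits ubiquitin chains and ends signalling to the IkB kinase (chromosome 10, 18720776 to 18720835, minus strand), was at 2.91, 2.67 and 2.99 on the IFN-beta arrays, against 2.33, 2.41 and 2.96 on the controls. Again control 3 was within the IFN-beta range. The difference was 0.29 ± 0.22 over all controls (adjusted p = 0.373), 0.49 against controls 1 and 2 (adjusted p = 0.0308) and -0.11 against control 3 (adjusted p = 0.795).

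**Figure D2:**
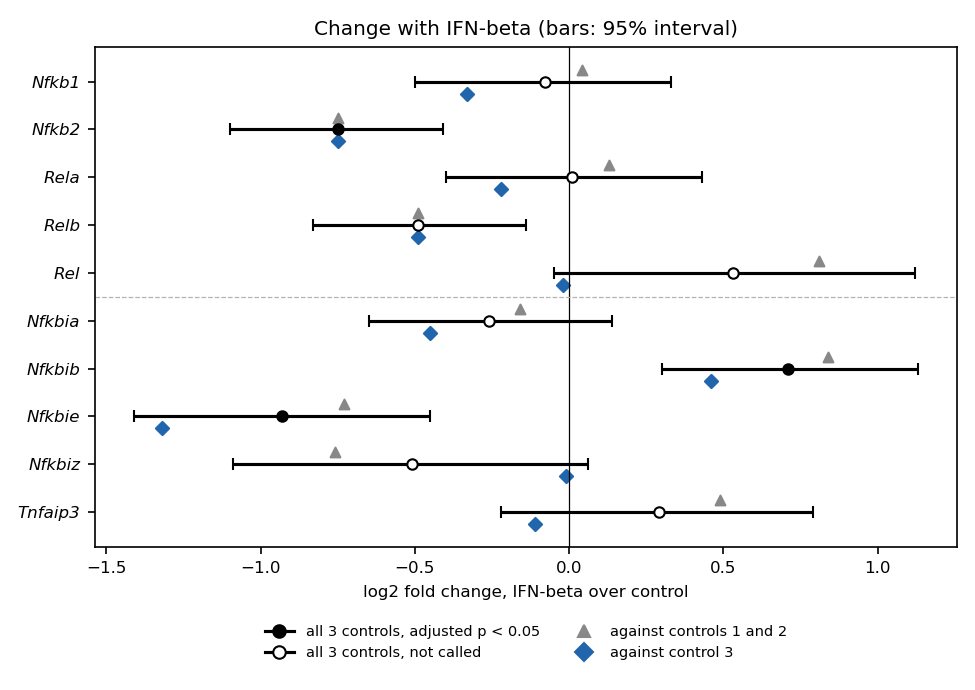
Log2 fold change of each gene, IFN-beta over control (x axis), with circles and 95% intervals for all 3 controls (filled where the adjusted p was under 0.05), triangles against controls 1 and 2 and diamonds against control 3, subunits above the dashed line and inhibitors below it. The 3 symbols coincide for Nfkb2 and Relb and spread widely for Rel, where they run from -0.02 to 0.81; intervals are not adjusted for the number of genes, so that of Relb leaves out 0 although the gene was not called.

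The groups did not overlap for 5 of 10 members (4 with IFN-beta below and 1 above), beside 40.2% of all genes tested (16.8% below and 23.4% above). Against controls 1 and 2 alone, 7 members were called, 3 higher and 4 lower, beside 48.2% of all genes (33.1% higher and 15.1% lower), and this comparison rests on a pair of controls that were more alike than any other pair of arrays. The labels do not tell whether these are separate RNA preparations, and if not the controls number 2. Averaged as 1 sample, which was added after seeing the data, they left Nfkbie called (-1.03, limma adjusted p = 0.0404) but not Nfkb2 (-0.75, adjusted p = 0.0634) or Nfkbib (0.65, adjusted p = 0.130). Against control 3 alone, 1 member was lower and none higher, beside 9.56% of all genes (4.34% lower and 5.22% higher, limma). At an unadjusted p under 0.05 there were 2 lower and none higher, beside 13.7% and 11.2% of all genes. Nfkbie was thus lower against both sets of controls, as were 3.82% of all genes, while 4.25% of all genes and no member were higher against both. The IFN-beta arrays all lay on 1 side of control 3 for 7 members, 6 below and 1 above, as they did for 70.2% of all genes (41.5% below and 28.6% above). For 7 members control 3 was above the mean of controls 1 and 2 by over 0.1, from 0.30 for Nfkbia to 0.83 for Rel. The same held for 71.9% of all genes, and the median of that difference over all genes was 0.35. Nfkbiz was the member for which control 3 was lower by more than 0.1, with a difference of -0.75, as it was for 18.8% of all genes.

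Other probes of the same genes gave a second reading for 7 members, each in a fit over 29794 probes. Nfkbib was higher on its other probe as well (chromosome 7, 29546905 to 29547054), by 1.05 ± 0.24 (limma adjusted p = 0.0188), and by 0.93 against control 3. The other probe of Nfkb2 (chromosome 19, 46386146 to 46386285) stood at -0.23, 0.13 and 0.04 on the IFN-beta arrays, against 0.44, 0.41 and 0.39 on the controls. These groups too did not overlap, and the difference of -0.43 ± 0.17 was not called (adjusted p = 0.0981). The other Rela probe was at 0.02 ± 0.24 (adjusted p = 0.964). Both other Relb probes were also lower on average, by -0.28 ± 0.23 and -0.35 ± 0.19 (adjusted p = 0.406 and 0.220). The second Rel probe (chromosome 11, 23641729 to 23641788) was at -1.50, -1.78 and -1.74 on the IFN-beta arrays, against -2.45, -2.61 and -2.02 on the controls. On this probe control 3 lay below all IFN-beta arrays, and Rel was called higher, by 0.69 ± 0.20 (adjusted p = 0.0479), which differs from the brighter probe. For Nfkb1, a probe at chromosome 3, 135275144 to 135275203, was at -0.25 ± 0.22 (adjusted p = 0.454), the same sign as the brightest one, while a probe at chromosome 3, 135254550 to 135254609, had the opposite sign, at 0.36 ± 0.15 (adjusted p = 0.130). For Nfkbiz, 1 probe was not well above background on any array, and another was at -0.32 ± 0.42 over all controls (adjusted p = 0.617) but 0.73 above control 3. Nfkbia, Nfkbie and Tnfaip3 had 1 probe each, so their values have no such second reading.

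**Figure D3:**
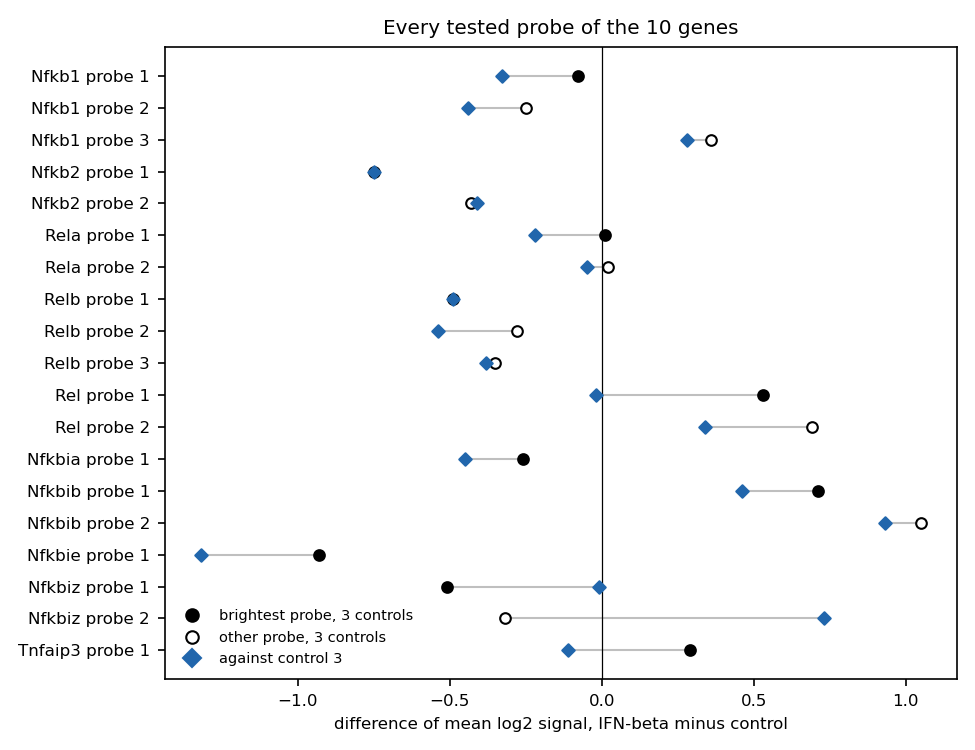
Difference of mean log2 signal, IFN-beta minus control (x axis), for each of the 19 tested probes, with circles against all 3 controls (filled for the brightest probe of a gene) and diamonds against control 3. Both Nfkbib probes lie above 0 and all Nfkb2 and Relb probes below 0 in either comparison, while the brightest Rel probe is at 0.53 over all controls and at -0.02 against control 3.

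The rest of the pathway was read from 4 lists of its other genes, chosen by role. Of 19 genes for the IkB kinase, its adaptors and its upstream activators, 3 rose and none fell (15.8% called). At an unadjusted p under 0.05 there were 9 higher and 1 lower, and of all genes 21.5% were higher and 14.8% lower by that measure, with which the counts for the next lists compare (limma). The median was 0.43, or 0.18 with spike-in scaling. Ikbkg, which encodes the regulatory subunit of the IkB kinase, was at 0.08, 0.40 and 0.42 on the IFN-beta arrays, against -1.01, -1.03 and -0.65 on the controls. That is a rise of 1.20 ± 0.19 (adjusted p = 0.00507), or 0.95 against control 3 (adjusted p = 0.0614). Rnf31, the catalytic subunit of the complex that builds linear ubiquitin chains on that regulatory subunit, rose by 0.93 ± 0.18 (adjusted p = 0.0109), and Traf2, an adaptor of TNF receptors, by 0.61 ± 0.15 (adjusted p = 0.0302). Myd88, the adaptor of most Toll-like receptors, was at 0.78 ± 0.24 (adjusted p = 0.0575). The kinase genes Chuk and Ikbkb, named after their values were seen, were not called, at 0.65 ± 0.22 and 0.00 ± 0.17 (adjusted p = 0.0733 and 0.991). Against control 3 no gene of this list was called (at an unadjusted p under 0.05, 3 higher and 2 lower), with a median of 0.14. With slide as a block no gene of this list was called (Ikbkg at 0.97, adjusted p = 0.0922).

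Of 8 other genes of the non-canonical pathway, receptors and the kinase upstream of the Nfkb2 product among them, 3 rose and none fell (37.5% called; none lower at an unadjusted p under 0.05 either, limma), with a median of 0.12 that was -0.14 with spike-in scaling. Map3k14, which encodes the kinase that starts the cutting of the Nfkb2 product, was at 1.42, 1.50 and 1.73 on the IFN-beta arrays, against 0.69, 0.74 and 1.17 on the controls. It rose by 0.68 ± 0.19 (adjusted p = 0.0459). Tnfrsf1b and Cd40, receptor genes of the TNF receptor family, rose by 0.91 ± 0.25 and 0.84 ± 0.24 (adjusted p = 0.0394 and 0.0455), and Birc2, a ubiquitin ligase gene, was at 0.25 ± 0.16 (adjusted p = 0.280). Against control 3 none of the 8 was called, nor had any an unadjusted p under 0.05, and Map3k14 was at 0.38 (adjusted p = 0.355). With slide as a block none was called either (Map3k14 at 0.55, adjusted p = 0.321).

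Among 16 other genes of IkB proteins and restrainers of the pathway, 1 rose and none fell (6.25% called; at an unadjusted p under 0.05, 2 higher and 1 lower, limma), with a median of 0.25 that was 0.00 with spike-in scaling. The gene that rose was N4bp1, which encodes a ribonuclease that limits NF-kB signalling. It was at 2.29, 2.0 and 2.17 on the IFN-beta arrays, against 0.82, 0.81 and 1.27 on the controls, a rise of 1.19 ± 0.19 (adjusted p = 0.00559). With slide as a block the rise was 1.33 and not called (adjusted p = 0.0503). Against control 3 it was 0.89, and the median of the 16 genes was -0.04. Nfkbid, a nuclear relative of Nfkbiz, was at 0.70 ± 0.26 (adjusted p = 0.0923) and Tnip3, a partner gene of Tnfaip3, at -0.63 ± 0.24 (adjusted p = 0.0969), and Tnip3 was lower against control 3, at -1.10 (adjusted p = 0.0339). Zc3h12a, an endoribonuclease gene, was at 0.40 ± 0.21 (adjusted p = 0.214).

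Known target genes of NF-kB changed in both directions. Of 25 tested, 5 rose (Il12b, Ccl4, Gadd45b, Ier3 and Il6) and 2 fell (Cxcl1 and Icam1), 28.0% in all (at an unadjusted p under 0.05, 12 higher and 3 lower, limma). The median was 0.37, or 0.20 with quantile normalization and 0.11 with spike-in scaling, and with slide as a block Il12b alone was called (1.63, adjusted p = 0.0329). Il12b, the p40 chain of IL-12, was at -2.66, -2.82 and -2.70 on the IFN-beta arrays, against -4.39, -4.55 and -3.94 on the controls. It rose by 1.56 ± 0.20 (limma adjusted p = 0.00192) and by 1.21 against control 3 (adjusted p = 0.0190). Ccl4, a chemokine gene, rose by 1.59 ± 0.22 (adjusted p = 0.00296), and Gadd45b, a stress response gene, by 1.02 ± 0.20 (adjusted p = 0.0126). Cxcl1, a neutrophil chemoattractant gene, was not well above background on any IFN-beta array. It stood at 1.28, 2.08 and -3.00 on controls 1, 2 and 3. Only an approximate bound holds, at least 19.5-fold lower over all controls (adjusted p = 0.0146) and at least 2.24-fold against control 3. The larger bound rests on controls 1 and 2, the arrays with high fibroblast transcripts, whose part was not tested. Ier3, Il6, Icam1 and Tnf are named after their values were seen. The first 3 stood at 0.85 ± 0.18, 3.13 ± 0.69 and -0.64 ± 0.16 (adjusted p = 0.0175, 0.0191 and 0.0325). Tnf, at 0.74 ± 0.26 (adjusted p = 0.0846), was not called. Vcam1, also chosen after its values were seen, was at -0.05, 0.13 and 0.12 on the IFN-beta arrays, against 3.99, 4.56 and -1.82 on the controls. For this adhesion gene, which fibroblasts also express, the direction was opposite against controls 1 and 2 (-4.20) and against control 3 (1.89, adjusted p = 0.00518). Changes against control 3 alone also went both ways, with a median of 0.19 over the 25 target genes, beside -0.10 for all genes.

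**Figure D4:**
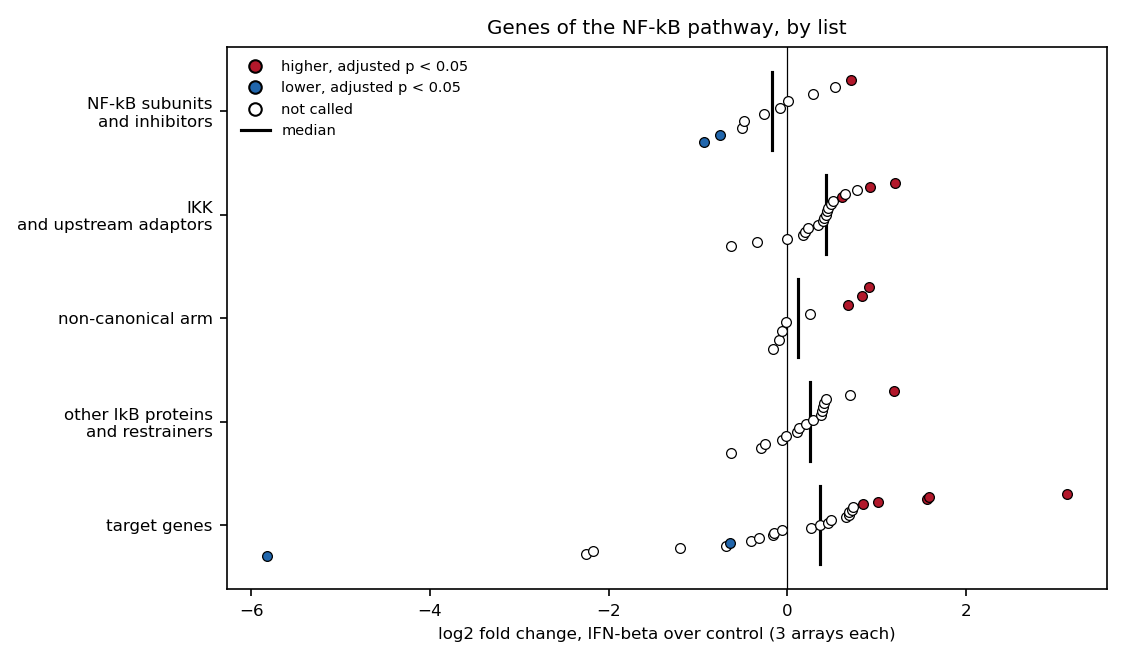
Log2 fold change, IFN-beta over control with 3 arrays each (x axis), of each tested gene in the 10 members and the 4 lists of other pathway genes, with called genes filled, red where higher and blue where lower, and vertical bars at list medians. The subunits and inhibitors have the lowest median, -0.17, beside 0.12 to 0.43 for the other lists, and the lowest point, Cxcl1, is a fitted value for which only a bound holds.

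Markers of other cells moved with the treatment beside these changes. Of 12 neutrophil markers 8 rose and none fell, beside 11.8% and 8.03% of all genes (limma, none lower at an unadjusted p under 0.05). Their summed level was 9.74 to 10.04 on the IFN-beta arrays, against 8.94 to 9.37 on the controls. Their median log2 fold change was 1.38 over all controls and 0.89 against control 3, where Mmp8 alone was lower, at -0.82. All 6 basophil and mast cell markers rose, with a summed level of 5.86 to 6.41 on the IFN-beta arrays, against 2.48 to 3.28 on the controls, and all 6 were also higher against control 3. All markers of both lists lay above background on every array. Erythroid markers followed controls 1 and 2, with a summed level of 1.05 to 1.51 on the IFN-beta arrays, against 7.33 and 7.21 on controls 1 and 2 and -0.25 on control 3. B cell markers were sparse, with 2 to 4 of 8 above background on the IFN-beta arrays, against 3 to 6 on the controls. Their summed level was 1.35 to 1.53, against 1.65 to 1.87. Of 4 tested, Ms4a1 alone was called, higher by 1.26 ± 0.33 (limma adjusted p = 0.0344). Ms4a1 was not well above background on control 3, so against that array only a bound of at least 2.41-fold holds. For T and NK cell markers the summed level was 1.71 to 2.32 on the IFN-beta arrays, against 1.84 to 2.19 on the controls. Of 5 tested, Klrb1c alone was called, lower by a bound of at least 1.4-fold (limma adjusted p = 9.15e-04), as it was dim on every IFN-beta array. For endothelium the summed level was 3.62 to 3.70, against 2.30 to 4.12. Of 4 tested, Kdr alone was called, higher by 1.94 ± 0.21 (adjusted p = 9.92e-04). Pecam1, Cdh5 and Egfl7 were lower on control 3 than on controls 1 and 2. Of 6 markers of plasmacytoid dendritic cells, 3 were called higher and none lower. Bst2, which interferon also induces in other cells, rose by 2.77 ± 0.24, Ccr9 by 1.33 ± 0.36 and Spib by 0.88 ± 0.22 (limma adjusted p = 3.91e-04, 0.0387 and 0.0284). Siglech, at -0.62 ± 0.22, and Tcf4, at -0.40 ± 0.16, lay below the controls on every IFN-beta array but were not called (adjusted p = 0.0835 and 0.119). Ly6d, at 0.08 ± 0.35, was not called either. Of the 12 markers of monocytes and macrophages, 2 rose, Ly6c2 by 2.89 ± 0.17 and Fcgr1 by 2.20 ± 0.27, and 4 fell, Cd14 (-1.81 ± 0.25), Mertk (-1.76 ± 0.33), Cx3cr1 (-1.44 ± 0.24) and Itgam (-0.72 ± 0.16), with adjusted p from 8.55e-05 to 0.0177. The part of these cells in the changes of Nfkb2, Nfkbie and Nfkbib was not tested.

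Profiles most like those of called members were found by the root mean square difference over the 6 arrays, after centring each gene on its mean. Nearest to Nfkbib were Zfp35 (0.0282), Poc5 (0.0295) and Nip7 (0.0346, in log2 units). Nearest to Nfkb2 were Man2a2 (0.0518), Rere (0.0619) and Gm38728 (0.0661). No other member was among these genes.

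Each of the 3 calls was lost without some single array and with slide as a block, while the fold changes moved little. Without 1 array, Nfkb2 lost its call for IFN-beta 3 (-0.74, limma adjusted p = 0.0537), control 1 (-0.74, adjusted p = 0.0731) and control 2 (-0.77, adjusted p = 0.0560). Nfkbie lost it for IFN-beta 2 and 3 (-0.90 each, adjusted p = 0.0789 and 0.0740), and Nfkbib for each of the arrays except control 3 (0.64 to 0.78, limma, adjusted p from 0.0750 to 0.135). All 3 controls shared slide 1 with IFN-beta 1, while the other IFN-beta arrays were on slide 2. Slide 2 held no control, so both slide settings take their fold change from IFN-beta 1 against the 3 controls. That array is also in the main fit, so a like fold change is not a test of the slide. With slide as a block, and likewise within slide 1, the values were -0.79 for Nfkb2, -0.82 for Nfkbie and 0.72 for Nfkbib, with adjusted p of 0.106, 0.196 and 0.196 in the block fit and 0.221, 0.328 and 0.316 within slide 1. Of all genes 5.33% were called in the block fit (3.42% higher and 1.92% lower) and 1.89% within slide 1 (1.28% higher and 0.61% lower).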

How the data were processed

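Per the file headers, the authors read the 6 one-colour arrays with Agilent Feature Extraction 12.0.3.1. The scanner files they deposited give each spot's intensity after detrending, with surrogates for dim spots and no normalization between arrays. A matrix of log2 values was also deposited (correlation with log2 processed signals from 0.996 to 0.999, medians of 4.82 and 4.83, not centred per gene). Per the submitters' processing notes it was made with limma, and how it was normalized stays unknown, so it served as an alternative. Positions of probes follow the files (mm9), those of promoters RefSeq (GRCm38.p6).

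Outlier spots were left out (which set aside 7 of 56605 probes) and spots of a probe were averaged. A probe had to lie well above background on all arrays of a group to be tested, and the brightest tested probe stood for its gene. No probe was saturated. Symbols came from RefSeq accessions (32989 probes) or from the files (10223 with a current symbol, 13386 without). Genes were compared in limma 3.58.1 under R 4.3.3 (tables read by data.table, version 1.17.8) on 4 residual degrees of freedom plus a prior. The number of arrays limits the precision. A bound sets each array where a gene is dim at the higher of its own value and a floor. The floor is the lowest signal of any probe well above background on that array, so the bound is approximate. The fit was tested on simulated data.

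The members and lists were chosen with earlier results of these data known. Named are all members, at most 4 genes per list in order of p, and the 3 profiles nearest to a called member (that of lowest p in either direction). Any other gene named was chosen after its values were seen. Correlations between members are not given because the arrays fall into clusters. Alternatives covered normalization, background correction, filters, probe averaging, variance models, blocks and leaving out arrays.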

Additional observations from a re-analysis of the deposited data

How the results depend on the processing

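Over 20 alternatives Nfkb2 ranged from -1.01 to -0.59 and kept its call in 13, Nfkbie from -1.18 to -0.73 with a call in 15, and Nfkbib from 0.46 to 0.88 with a call in 10, none of the 3 changing sign. Relb was called in 6, from -0.74 to -0.37. The genes called numbered 3866, against 1697 with no filter on dim probes, 12734 with array weights, 1040 with slide as a block, 369 within slide 1 and 1993 with controls 1 and 2 averaged as 1 sample, the last chosen after seeing the data. They numbered 1830 to 9390 without 1 array each (1830 and 2014 without control 1 or 2, 9390 without control 3, 1855 and 2050 without IFN-beta 2 or 3). Higher members numbered 0 with spike-in scaling, with no filter, with slide as a block, within slide 1 and with controls 1 and 2 averaged, 3 with array weights, and 0 to 3 without 1 array each. Lower members numbered 4 with normexp and quantile normalization and with array weights, 0 with no filter, with slide as a block and within slide 1, 1 with controls 1 and 2 averaged, and 0 to 4 without 1 array each. Against control 3 the count of 1864 genes became 1073 with no filter, and 910 to 3397 without 1 IFN-beta array each (3397, 1170 and 910 without IFN-beta 1, 2 or 3), which was added after seeing the data. Lower members there numbered 2 with normexp under either normalization and with all 6 arrays above background, 0 with no filter, and 0 to 1 without 1 IFN-beta array each. Without the filter 37323 genes were tested. The cause of these shifts, that without the filter included, was not tested.

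Rela, at 0.01, turned to -0.13 with quantile normalization, -0.14 and -0.17 with normexp (percentile or quantile), -0.24 with spike-in scaling, -0.03 in the deposited table, -0.04 with controls 1 and 2 averaged, and ranged from -0.05 to 0.13 without 1 array each, turning without control 1 or 2 or IFN-beta 1 or 2. Nfkb1, at -0.08, turned to 0.01 with all probes averaged, 0.05 with array weights and ranged from -0.16 to 0.04 without 1 array each, turning without control 3. None of these values was called. Same-numbered replicates deviated from their group means with correlations of 0.07, 0.02 and 0.07, all under 0.1. Because control 3 stood apart from controls 1 and 2, such values cannot tell whether the numbers pair the samples. With the replicate block 3271 genes were called and no member's call changed (Nfkb2 adjusted p = 0.0346, Nfkbie 0.0413, Nfkbib 0.0411).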
